A study of Callorhinchus milii with 12 samples.

Results

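In vertebrates most CG dinucleotides are methylated, and the exceptions are mainly short unmethylated stretches such as CpG islands. A rarer class are DNA methylation valleys, also called canyons, which stay unmethylated over many times the length of an island. In mammals and zebrafish they are known to lie over genes of developmental regulators, such as homeobox transcription factors, and to carry Polycomb marks in tissues where those genes are silent. The valleys of the elephant shark (*Callorhinchus milii*), a cartilaginous fish, are described here from bisulfite sequencing of adult liver, in which unconverted cytosines are read as methylated. The analysis used the liver of 1 adult female and the liver of 1 adult male, each deep-sequenced as 1 library from whole liver DNA of a dead animal that commercial fishing had landed, so sex, animal and library cannot be told apart and no test between them was possible. Liver DNA holds every cell type of the organ, and the levels are averages over these cells.

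The valleys were chosen by their methylation level. The CG calls of both livers were added in adjoining bins of 500 bp, and the level of a bin is the percentage of its calls that were methylated. A valley was a run of at least 8 bins, or 4 kb, that each held at least 10 calls and were under 20% methylated, where single bins with fewer calls were passed over. There were 700 valleys among 29150 runs of 1 or more such bins. They covered 6096.5 kb, or 0.703% of the assembled length analysed, and held 21.6% of the 53424 bins under 20% (3.93% of the 1359282 bins with enough calls). A further 68 runs of this length lay on 5 scaffolds, 2035.87 kb in all, whose overall level was itself under 20%, and were left out.

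The female library held 30080951 CG calls and the male library 38128530, of which 69.0% and 71.6% were methylated. A valley had a median of 829 calls over both livers (range 141 to 23813) on a median of 165.5 CG sites. Depth in the valleys was close to that of the assembly, with 5.26 calls per CG site in the valleys against 5.03 over all bins. The Wilson intervals given below have a level of 95% and cover counting error only, and as calls on the same read are not independent they are too narrow.

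The median valley was 6.5 kb long, with quartiles of 5 and 10 kb. The lengths had a long upper tail, in which 179 valleys reached 10 kb, 36 reached 20 kb, 7 reached 30 kb and 5 reached 50 kb. The 179 valleys of 10 kb or more held 49.5% of the valley length. At the lower limit, the 109 valleys of exactly 8 bins had a median level of 1.94% and 2.20 CG sites per 100 bp, and the 162 runs of 7 bins, just outside, had 2.66% and 2.43 CG sites per 100 bp.

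**Figure D1:**
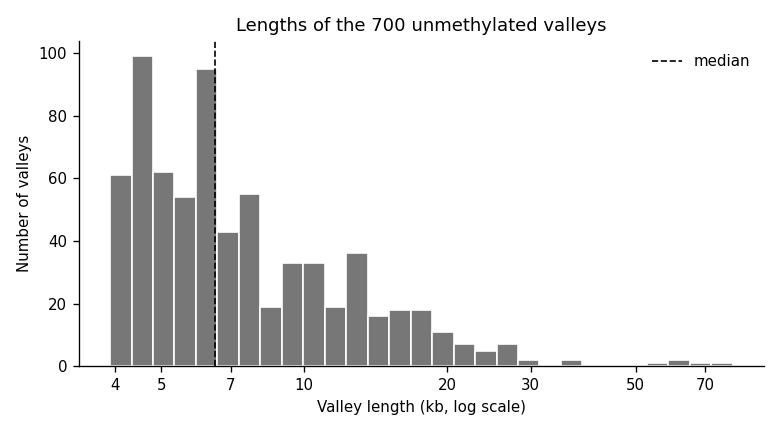
Number of valleys (vertical axis) by length in kb (horizontal axis, log scale) for the 700 valleys, with the median of 6.5 kb as a dashed line. Most valleys lie under 10 kb, and 5 stand apart at 57.0 to 72.5 kb.

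The 10 longest valleys together spanned 486 kb, or 7.97% of the valley length. Their levels over both livers ran from 0.819% to 2.27%, where the median over all valleys was 2.13% with quartiles of 1.40% and 3.37%. The longest ran over 72.5 kb of scaffold NW_006890145.1, from base 182001 to 254500 of assembly 6.1.3. It held 2512 CG sites, and 1.39% of its 6749 female calls and 1.12% of its 7383 male calls were methylated. The same scaffold carried the valley ranked 3 in length, from 332001 to 396500, at 2.05% in the female and 1.30% in the male. Both were denser in CG than most valleys, with 3.46 and 3.36 CG sites per 100 bp.

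The valley ranked 2 in length spanned 69.5 kb of scaffold NW_006890241.1, from 48501 to 118000, and was 2.65% methylated in the female and 1.95% in the male. Its depth of 10.7 calls per CG site was above that of most of the assembly. The valley ranked 4 spanned 64.0 kb of NW_006890174.1, from 2025501 to 2089500, at 1.16% in the female and 1.87% in the male. It had fewer female calls for its male calls than the assembly as a whole, by 0.67 on the log2 scale. A valley of 27.0 kb followed it after a gap of 1.5 kb, from 2091001 to the scaffold end at 2117968. This valley was short of female calls by 1.21, whereas over the whole scaffold female calls fell by only 0.08. Such a shift was rare, since only 0.286% of valleys and 0.422% of 4 kb windows with at least 100 calls had a log2 ratio of female to male calls beyond 1 in either direction.

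The valley ranked 5 spanned 57.0 kb of NW_006890318.1, from 163501 to 220500, at 1.33% in the female and 1.83% in the male. This scaffold was the richest in valleys for its size, with 8 valleys over 137 kb, or 29.6% of its 462.74 kb. The valleys ranked 6 to 10 were 28 to 37 kb long. They lay at 5621001 to 5658000 and at 4127501 to 4155500 of NW_006890079.1, at 11115001 to 11151000 of NW_006890061.1, at 7427001 to 7456000 of NW_006890073.1 and at 4173001 to 4201500 of NW_006890106.1. The first of these had the lowest level of the 10 longest, 0.799% in the female and 0.838% in the male, and its highest bin was 4.35%. No annotation of this assembly was at hand, so genes in or near valleys are not named.

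Over all valleys, 2.41% of 361446 female calls (Wilson interval 2.36% to 2.46%) and 2.59% of 439452 male calls (2.54% to 2.64%) were methylated, against 69.4% and 72.0% of the calls over all bins of the same scaffolds. These low values are what the valleys were selected on and are given as a description. So are the counts that follow, since the level moves with the limit chosen. Of the 700 valleys, 628 were under 5% over both livers, 318 were under 2% and 9 were at 10% or more. No valley reached 20% in either liver. The files used here hold calls in the CG context, so incomplete bisulfite conversion, which also reads as methylation and which the study estimated from calls outside CG, was not analysed here. Its part in the 2.51% was not tested.

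The same was seen within valleys. Of 11539 bins with enough calls, 42.8% had no methylated call, 37.3% were above 0 but under 5%, and 2.63% were at 15% or more. The highest bin of a valley was 11.8% in the median. Of 69519 CG sites with at least 5 calls, 84.7% had no methylated call, against 84.3% in unmethylated runs of 2 to 6 bins, called islands below, and 6.1% of all such sites in the assembly. In valleys 129 sites (0.186%), spread over 101 valleys, were methylated in 50% or more of their calls, against 1.01% of sites in islands. A valley must stay low over more bins than an island, so the rule bears on this contrast. Of 12415 valley sites with at least 5 calls in each liver, 29 were at 50% or more in the female liver, 37 in the male liver and 4 in both livers. The same counts were not made over all 802065 such sites of the assembly. The rule holds the added level of valley bins low, so nothing is read from these counts.

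Single reads gave the same picture at the level of molecules. Of the reads with at least 3 CG calls in valleys, 92.6% in the female and 91.7% in the male had no methylated call, against 12.3% and 11.2% over all bins. Fully methylated reads made up 0.254% in the female and 0.215% in the male, against 49.2% and 52.2% over all bins. Mixed reads were 7.16% of female reads and 8.11% of male reads, and 78.1% and 80.1% of them held a single methylated call. Thus most mixed reads were unmethylated but for a single call, and whole methylated reads were rare. The share of all methylated calls that lay on such reads was not counted. The choice of low bins itself favours unmethylated reads.

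The bins that the rule passed over give a reading of the valleys that the rule did not use. There were 654 of them in 384 valleys, and 134 had no call at all. In the others, 131 of 3018 calls were methylated, which is 4.34% (Wilson interval 3.67% to 5.13%). Bins with under 10 calls elsewhere on the same scaffolds were methylated at 62.6%. Of the 520 passed-over bins with a call, 39 were at 20% or more. All 654 passed-over bins together held 0.526 called CG sites per 100 bp, which their choice as bins of few calls bears on.

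Each liver was also read in the valleys found in the other. With runs sought in the male liver alone, where bins needed at least 5 calls, 698 valleys were found, and 693 of them (99.3%) were under 20% in the female liver, with a median of 2.20%. Of adjoining 4 kb windows with at least 50 calls in each liver, 2.01% were under 20% in the female. With runs sought in the female liver alone, 674 valleys were found, and 670 (99.4%) were under 20% in the male liver, with a median of 2.51%. Of the 4 kb windows, 1.83% were under 20% in the male. Each of these shares is far above its background. Of the female-found valleys, 87.7% overlapped a male-found one, and 82.8% of the male-found valleys overlapped a female-found one. No background was counted for these overlaps, so they are given as a description.

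The female and male levels of a valley were close. The difference, female minus male, had a median of -0.24 points and an SD of 1.93 points over the 700 valleys, with a range of -8.33 to 11.5 points. The female was lower in 408 valleys, higher in 290 and equal in 2. The female was lower by over 5 points in 5 valleys, where 35.3% of 190923 4 kb windows passed that limit, and higher by over 5 points in 14 valleys, where 13.6% of windows did. The rule holds the added level of every bin under 20%, which leaves less room for a difference than in other windows, and nothing is read from these shares. Which liver was lower overall depended on how the valleys were found, since the pooled difference was -0.18 points in valleys found with both livers, -0.81 points in those found in the female alone and 0.30 points in those found in the male alone. A sex difference in valley level therefore cannot be read from these libraries. Across valleys the female and male levels went together (Pearson's r = 0.64, Spearman's rho = 0.56 over 700 valleys that share both libraries).

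**Figure D2:**
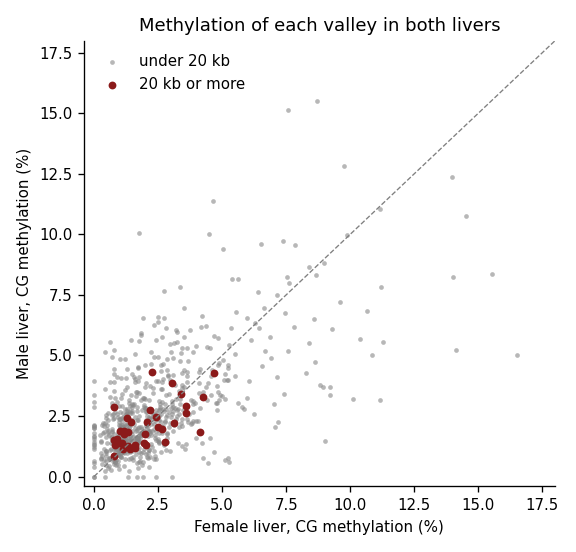
CG methylation (%) of each of the 700 valleys in the female liver (horizontal axis) and in the male liver (vertical axis), with the line of equal levels dashed and the 36 valleys of 20 kb or more in red. The points crowd under 5% in both livers, and the red points all lie under 5%.

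The valleys that differed most between the livers were 4.0 to 11.5 kb long. In the direction of a lower female level these were a valley of 5.0 kb at 2950501 to 2955500 of NW_006890140.1 (1.74% in the female, 10.1% in the male), one of 4.5 kb at 437501 to 442000 of NW_006890180.1 (7.56% and 15.2%), and one of 4.0 kb at 5763501 to 5767500 of NW_006890084.1 (8.72% and 15.5%). In the opposite direction, a valley of 7.0 kb at 6550501 to 6557500 of NW_006890054.1 had 16.5% in the female and 5.02% in the male. It was followed by a valley of 5.5 kb at 2161501 to 2167000 of NW_006890080.1 (14.1% and 5.21%) and one of 11.5 kb at 1297501 to 1309000 of NW_006890175.1 (11.2% and 3.17%). These 6 were picked as extremes of 700 values from 1 library of each sex, and they are given as values without a test.

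Pooled levels were lower in the longer classes. The 160 valleys under 5 kb were 2.82% methylated in the female and 3.13% in the male, pooled over their calls. The 361 valleys of 5 to under 10 kb were at 2.50% and 2.78%, and the 143 of 10 to under 20 kb at 2.35% and 2.55%. The 36 valleys of 20 kb or more were at 2.03% in the female liver and 1.90% in the male liver. The median level of a valley was 2.05%, 2.26%, 2.18% and 1.87% in these 4 classes, with no steady fall. Across all valleys, log length and level had Pearson's r = -0.10 and Spearman's rho = -0.02.

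The valleys were richer in CG than the assembly but not as a result of a few dense ones. The rule does not use CG density except through its minimum of calls. The median valley had 2.42 called CG sites per 100 bp (quartiles 2.03 and 2.82). The median 4 kb window had 1.48, and 678 of the 700 valleys (96.9%) were above that. The single bins of such a window did not need the minimum of calls, so the rule bears on this contrast. With CG sites pooled over their length, valleys had 2.50 called CG sites per 100 bp. All bins with enough calls had 1.88, and all bins of the same scaffolds had 1.55. The valleys were thus denser than bins held to the same minimum, but by less than against all bins. The distance between neighbouring CG sites had a median of 20 bp in valleys and 29 bp in the assembly. With CG sites pooled over their length, islands had 2.99 per 100 bp, above the 2.50 of valleys. The median density of an island, 2.40, was nearly that of a valley, but islands were far more varied, with quartiles of 1.30 and 4.33. Thus the middle of the valleys lay in a narrow band of moderate density, whereas islands ranged from sparse to very dense. A valley averages over more bins than an island, which by itself can narrow the spread, and the part of this was not tested. Among valleys, density ranged over 0.867 to 6.35, 0.450 to 6.97, 1.31 to 3.33 and 1.74 to 3.46 from the shortest to the longest length class. Density did not move with length, since the median was 2.52, 2.36, 2.45 and 2.45 in the 4 length classes, and r between log length and density was -0.08 over 700 valleys of the same libraries.

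At the dense end were a valley of 6.5 kb at 7565001 to 7571500 of NW_006890064.1 with 6.97 CG sites per 100 bp, one of 7.5 kb at 152001 to 159500 of NW_006890283.1 with 6.91, and the valley on NW_006890084.1 named above with 6.35. The first was 0.936% methylated in the female and 1.21% in the male, and the second 1.01% and 1.45%. At the sparse end were a valley of 6.0 kb at 421501 to 427384 of NW_006890327.1 with 0.450, one of 6.0 kb at 5501 to 11500 of NW_006890165.1 with 0.700, and one of 4.5 kb at 67501 to 72000 of NW_006890275.1 with 0.867. The 3 sparsest had 30.1, 26.9 and 8.62 calls per CG site, all above the median of 4.64 for a valley, and the first 2 lay within 5.5 kb of a scaffold end.

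Such high depth was seen in 21 valleys (3.00%) with over 10 calls per CG site, against 0.259% of 4 kb windows. The single bins of a window did not need the minimum of calls, so the rule bears on this contrast. These 21 valleys covered 197.5 kb, 7 of them lay within 5 kb of a scaffold end, and their median level was 2.09%. The valley ranked 2 in length was among them. The part of this depth in their levels was not tested beyond leaving them out. Without these 21, the 679 other valleys had a pooled level of 2.47% and a median density of 2.42 CG sites per 100 bp.

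**Figure D3:**
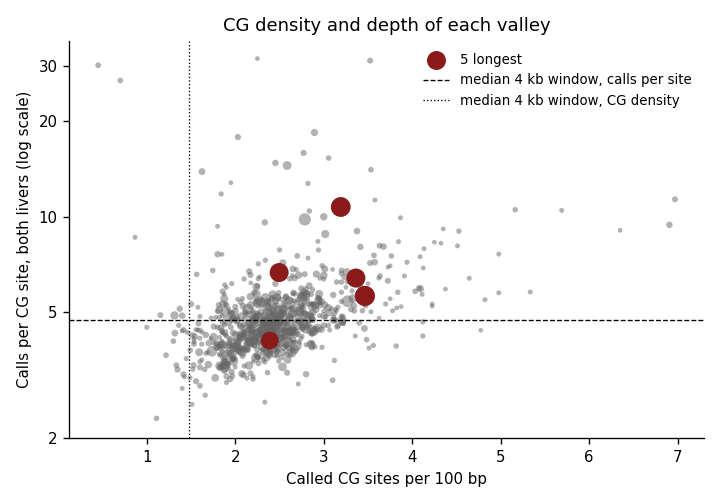
Called CG sites per 100 bp (horizontal axis) and calls per CG site in both livers added (vertical axis, log scale) of each valley, with point area growing with length, the 5 longest valleys in red, and the median 4 kb window as dashed and dotted lines. Most valleys lie to the right of the median window's 1.48 CG sites per 100 bp, and the 2 sparsest valleys sit near 30 calls per site.

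Pooled over the ends of the valleys, the level was low up to the last bin inside, as the rule sets, and intermediate for many kb outside. Over the 1400 ends, the outermost bin inside was 5.0% methylated and the bin before it 2.83%, pooled over calls. The first bin outside was at 44.2% where it had enough calls, and the rule kept such a bin at 20% or more. The rule also bears on the second bin outside where the first had too few calls, and this bin was at 46.8%. Further out, bins of neighbouring valleys were counted too, which the rule holds low, and 127 of 537 gaps between neighbours were under 5 kb. With these included, the level was 38.5% at 1.25 kb, 33.9% at 1.75 kb and 37.8% at 4.25 kb. It was 46.2% at 10.25 kb and 54.3% at 19.25 kb, which is still under the 70.8% of all bins. Around islands the level was 61.7% at 1.75 kb and 68.4% at 19.25 kb. The female was lower than the male at these distances outside valleys, as in the assembly as a whole, with 33.0% against 34.6% at 1.75 kb and 52.9% against 55.4% at 19.25 kb.

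The range among ends was wide. At 1.75 kb outside a valley the quartiles of the bins were 5.13% and 65.6%, so that part of the ends had reached high methylation and part were again in unmethylated sequence. The first bin at 60% or more came after a median of 2 kb (quartiles 0.5 and 6.5 kb), against 0.5 kb for islands. This distance can run through a neighbouring valley, and the part of such neighbours in the contrasts with islands was not tested. Of the ends, 261 stopped at a bin of 60% or more, 295 at 40 to under 60% and 451 at 20 to under 40%. A further 380 ends (27.1%) stopped at 2 or more bins with too few calls and 13 at the end of a scaffold, so these valleys may run on beyond the limits given. The outermost bin inside had 2.06 called CG sites per 100 bp, against 1.33 in the first bin outside. The rule itself bears on this difference, since every bin counted at the inner side had at least 10 calls, whereas 820 of 1387 bins at the outer side did.

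**Figure D4:**
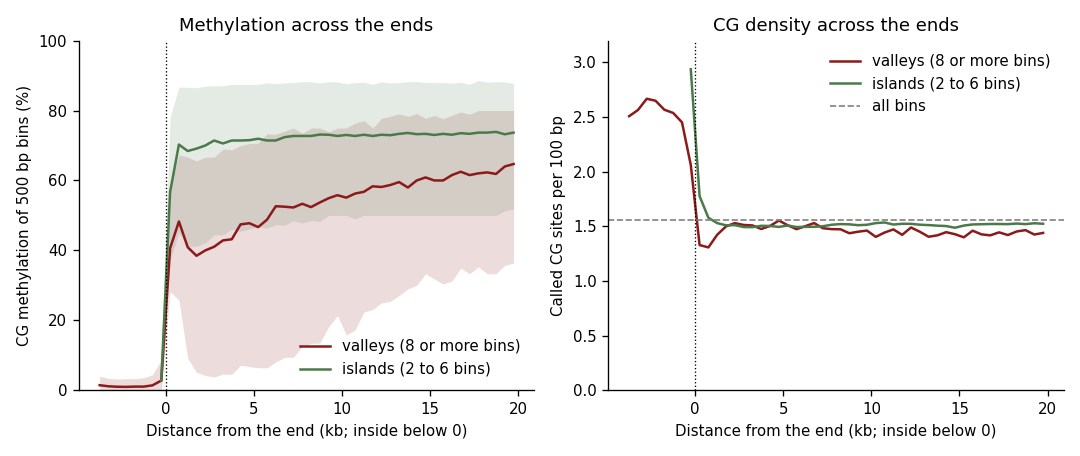
Left, CG methylation (%) of 500 bp bins, both livers added, as median (line) and quartiles (shading), by distance in kb from the ends of valleys (red) and of islands of 2 to 6 bins (green); right, called CG sites per 100 bp at the same distances, with all bins dashed. Outside valleys the median stays near 40% for several kb, with a lower quartile near 5%, while outside islands it is near 70%. Bins of neighbouring valleys are included outside the ends.

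The wider surroundings were also less methylated than usual. In the 50 kb on each side, with bins of valleys left out, the median over valleys was 63.3% (quartiles 53.6% and 70.5%). The same measure around 216634 windows of 4 kb had a median of 72.0% (quartiles 63.4% and 78.3%), and around islands 71.2%. Of the valleys, 555 (79.3%) had surroundings under the median of the windows, and 135 (19.3%) had surroundings under 50%, against 5.71% of windows. Low bins outside valleys, such as those in the gaps between neighbours, stayed in this measure. Valleys near each other also share part of their surroundings. The part of both in these contrasts was not tested. The median of the surroundings was 65.4%, 63.7%, 61.6% and 54.9% from the shortest to the longest length class.

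Valleys lay near each other in part. With valleys joined where the gap was at most 20 kb, 310 valleys (44.3%) fell into 119 groups and 390 stood alone, and 127 of 537 gaps between neighbours on a scaffold were under 5 kb. Valleys in groups had a median length of 7 kb and valleys alone 6 kb. There were 7 groups of 5 or more valleys, which held 46 valleys. A single bin at 20% or more ends a run, so low stretches parted by such a bin count as separate valleys. Over scaffolds, 163 of 325 had a valley, and these made up 79.6% of the length. There were 0.807 valleys per Mb, and 3 of the 47 scaffolds of 5 Mb or more had none.

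The largest group held 12 valleys in 178.5 kb of NW_006890175.1, from 1163001 to 1341500. Valleys covered 71.1% of this stretch. Between them 82 bins had enough calls, of which 38 were under 20%, 37 at 20 to under 50% and 7 at 50% or more, and a further 21 had too few calls. CG density differed little among the 12 valleys, at 2.22 to 2.68 sites per 100 bp.

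Several valleys of this group differed between the livers. Pooled over its valleys 4.96% of female calls and 2.83% of male calls were methylated, and 8 of the 12 valleys were higher in the female. Over all 700 valleys, 290 were higher in the female, 14 of them by over 5 points. The valleys of this group are neighbours on a scaffold, and sex, animal and library cannot be told apart. No sex difference is therefore read from these values. The female excess lay mainly in 4 valleys toward one end of the group. These had 10.9% in the female and 5.04% in the male at 1269001 to 1281500, 11.2% and 3.17% at 1297501 to 1309000, 9.22% and 3.72% at 1310001 to 1314500, and 11.3% and 5.56% at 1333001 to 1341500. In the other 8 valleys the female was between 0 and 4.00% and the male between 0.660% and 3.61%, and these ranges overlap. With runs sought in the male alone, a run from 1327501 to 1332000 was one of the 5 that were at 20% or more in the female. It is none of the 12 valleys and lies in a gap between them. Its choice by a low male level bears on this contrast, so nothing is read from it.

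The group ranked 2 held 7 valleys in 92.0 kb of NW_006890067.1, from 5066501 to 5158500, and was nearly unbroken, with valleys over 91.8% of it. Its 7 valleys had 1.13% to 4.70% in the female and 2.46% to 4.31% in the male, and 2 of them were higher in the female. Of the 8 bins between valleys with enough calls, none was under 20%, 7 were at 20 to under 50% and 1 was higher. The group ranked 3 held 6 valleys in 83.2 kb at the end of NW_006890268.1, from 655001 to 738209, with valleys over 61.9%. Its valleys ranged over 1.04% to 3.70% in the female liver and over 0.806% to 4.62% in the male liver, and 3 were higher in the female. In its longest valley, of 13 kb at 669001 to 682000, female calls outnumbered male calls, 691 against 260, which is 1.75 above the assembly on the log2 scale, and whether this bears on its level was not tested.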

How the data were processed

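Methylation was measured by post-bisulfite adaptor tagging and whole-genome bisulfite sequencing. The authors trimmed the reads (Trim Galore 0.4.0, per the submitters' processing notes), aligned them with Bismark 0.14.3 to large scaffolds of assembly 6.1.3, removed duplicates and deposited the calls of the methylation extractor, in which each row is a methylated or unmethylated CG cytosine of a read and no other value is given. The 10 reports of low-coverage libraries and a gene table of another assembly were not used.

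Calls were counted in bins of 500 bp with Python 3.11.15, NumPy 2.4.6, pandas 2.3.3 and Matplotlib 3.10.9. Positions 1 bp apart were joined as 1 CG site. Islands were runs of 2 to 6 bins (1 to 3 kb). Run finding was checked on simulated data. Windows of 4 kb with at least 50 calls in each liver, 190923 in all, served as background. The surroundings were set against a larger set of 216634 windows. The ratio of female to male calls was set against 198609 windows with at least 100 calls in both livers added. There is 1 library of each sex, so no test was made. The valleys, measures and comparisons were chosen with earlier results of these data known. Valleys named are the 10 longest, the 3 that differ most between livers in each direction (at least 100 calls in each), the 3 most and 3 least dense in CG, and the 3 groups with most valleys. The neighbour of the valley ranked 4, the scaffold richest in valleys and single members of groups were named after their values were seen. Alternatives changed the level limit, the minimum of calls, the bin size and grid, the passing over and bridging of bins, the liver used and the calls per read.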

Additional observations from a re-analysis of the deposited data

How the results depend on the processing

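The number of valleys lay between 555 and 967 under all alternatives except bins of 250 bp with the same minimum of calls, which hold fewer calls each and gave 307 valleys over 2101.25 kb. The pooled level was 1.647% with a limit of 10%, 2.096% with 15% and 2.908% with 25%, as the limit itself sets. It was 1.881% with bins of 250 bp, 2.999% with 1 kb, 2.423% with no bin passed over and 2.659% with 1 call per read. In valleys found in the female liver alone it was 2.556%, read over both livers. With single bins at or over 20% bridged it was 3.088%. Without the valleys of over 10 calls per CG site, an alternative chosen after seeing the data, it was 2.469%. The female minus male difference (-0.18 points) was -0.8123 points in valleys found in the female liver alone and reversed to 0.2987 points in those found in the male liver alone. In each case the liver that chose the valleys was the lower one. Median CG density was 2.475 sites per 100 bp with a limit of 10%, 2.343 with 5 calls per bin, 2.6 with 20 calls and 2.861 with bins of 250 bp. It was 2.2 with 1 kb, 2.54 with no bin passed over, 2.475 in valleys found in the female alone and 2.571 with 1 call per read. The 1.48 of 4 kb windows was not recomputed under these settings, so nothing is read from these values against it. The other alternatives moved the counts and lengths by less than 1.5 times and the levels and densities by less than their counting error or spread. Single CG sites rest on about 5 calls in both livers, which limits their levels. No paired analysis was possible because there is 1 library of each sex and no test. The placing of promoters was not run, since no promoter sequences were used here.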
